A study of Arabidopsis thaliana with 24 samples.

Results

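The chloroplast genome of Arabidopsis thaliana was represented on the Affymetrix ATH1 array by 69 genes that each had 1 probe set naming no other gene, among 22746 probe sets that were not array controls and 13350 genes that could be matched to a locus. A gene was taken when the array's annotation gave its probe set exactly 1 gene and that gene lay on the chloroplast chromosome of the RefSeq annotation. The 69 genes comprised 15 of photosystem II, 10 of the NDH complex, 8 of the small and 7 of the large ribosomal subunit, 7 of photosystem I (2 of them, ycf3 and ycf4, being assembly factors), 6 of the cytochrome b6f complex, 6 of ATP synthase, 4 of the RNA polymerase, the Rubisco large subunit gene rbcL and 5 others. A further 8 probe sets, of ndhB, rpl2, rpl23, rps7, rps12, ycf1 and ycf2, carried several gene identifiers and were not taken. Which genes were taken followed from the annotation alone, but the rule was set with earlier results of these data known.

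RNA came from shoots and roots of Col-0 plants grown on rafts over Murashige and Skoog medium under 16 h days. At 16 days of age, 3 h after lights on, all plants received bleomycin at 1.5 µg/ml, a drug that breaks DNA strands, and mitomycin at 22 µg/ml, which crosslinks them. Shoots and roots were taken after 0.5, 1, 3, 6, 12 and 24 h, with 2 arrays in each of the 12 groups, 24 arrays in all. No untreated plants are among these samples, so every time was set against 0.5 h of treatment in the same organ. The 1 h and 24 h samples fell near the same hour of day as that baseline. By the stated day length, the 3, 6 and 12 h samples fell later in the same light period, before lights off. Whether both arrays of a group were hybridised with RNA of different plants is not given in the labels, and the p-values therefore reflect the array-to-array spread seen here, part or all of which may be technical.

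Chloroplast genes are transcribed by a bacterial-type RNA polymerase whose core subunits the plastid itself encodes and by phage-type polymerases encoded in the nucleus. Most lie in clusters that are transcribed together and then cut and trimmed, and the level of the mature RNA depends on its stability as well as on transcription. Green leaf chloroplasts carry many genome copies and large amounts of photosynthesis RNA, whereas root cells mostly hold non-green plastids.

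Values are linear MAS5 signals that had been scaled to the same trimmed mean on each array. Differences are in log2(signal + 16) with standard errors from limma, fitted over all probe sets, and an adjusted p below 0.05 was counted as a change. Probe sets differ in brightness, so signals of different genes served to choose which gene of a class to name, as its brightest, and are not compared as RNA levels. In shoots 2 arrays stood nearer to the roots than the others, array 1 at 12 h and array 2 at 24 h, with mean correlations to the root arrays of 0.714 and 0.711 against 0.678 to 0.692. Between the 2 arrays of each group, r over all probe sets was 0.984 to 0.993. The summed signal of 3 root markers was 398.5 to 812.4 in shoots and 3014 to 3797 in roots, and that of 8 nuclear photosynthesis genes 23780 to 43190 in shoots and 568.4 to 1022 in roots, so the organ labels held on all 24 arrays.

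All 69 plastid genes were higher in shoots than in roots over the 6 times, 12 arrays against 12. Their median difference was 2.94 on the log2 scale, with a range from 0.77 for petN to 4.93 for ndhJ, while the median over all probe sets was -0.11 and 27.6% of them were called higher in shoots. On 66 of the 69 genes every shoot array was above every root array, which held for 12.9% of all probe sets. In whole organs, fewer green cells and less plastid RNA in each cell cannot be told apart. Another scaling moved the median of all probe sets to 0.09 after centring or -0.01 after quantile normalization, and the members' median then stood at 3.14 or 2.76, with all 69 higher under both.

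**Figure D1:**
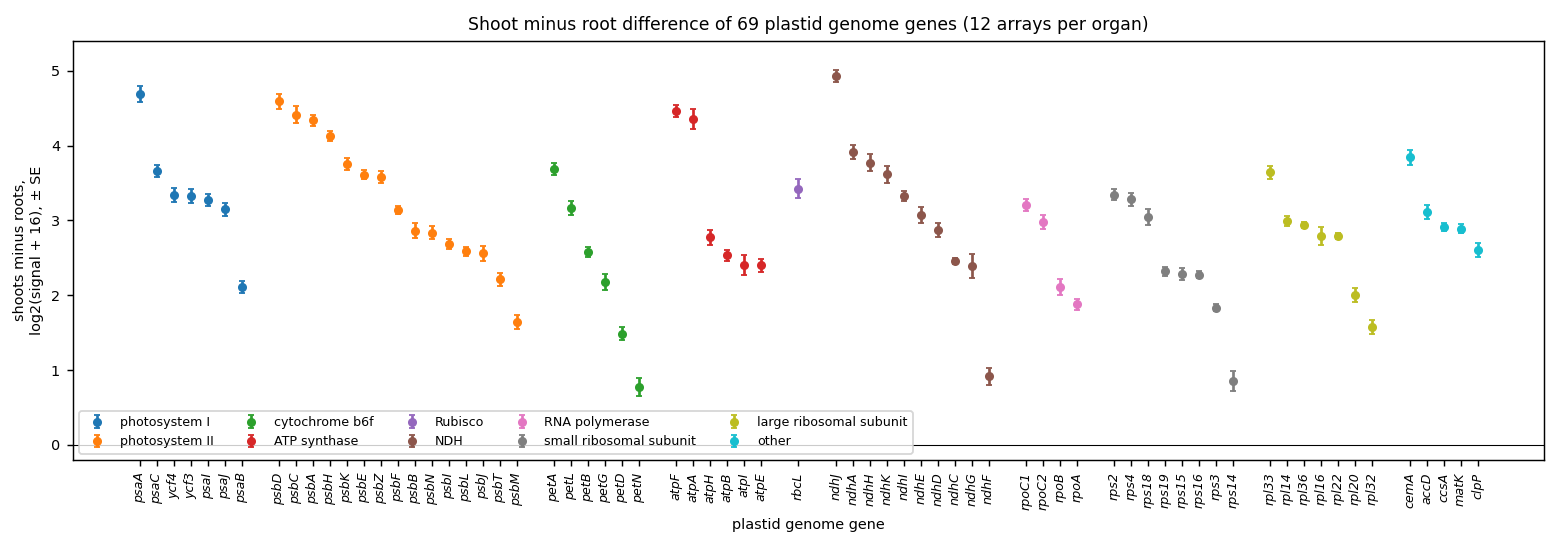
Difference between shoots and roots for each of the 69 plastid genes (horizontal axis, grouped and coloured by class), in log2(signal + 16) on the vertical axis, 12 arrays per organ, with bars of ± 1 standard error. All genes lie above 0, petN lowest at 0.77 and ndhJ highest at 4.93, whereas the median of all probe sets was -0.11.

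Photosystem I takes electrons from plastocyanin and reduces ferredoxin, and its 7 genes had a median difference of 3.33. The reaction centre gene psaA read 3741 to 5471 in shoots (median 4882) and 109.4 to 263.2 in roots (median 179.8). The groups did not overlap, and the difference was 4.69 ± 0.10 (adjusted p = 7.3e-18, limma), the largest of its class. Its partner psaB, brightest of the class in shoots at 4438 to 7166, still gave 1051 to 1618 in roots, and its difference was the smallest, 2.11 ± 0.08. Both genes are neighbours on the plastid chromosome and their proteins pair in the reaction centre, and whether their differences themselves differ was not tested.

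Photosystem II oxidises water, and its 15 genes had a median of 3.14 and ranged from 1.64 to 4.59. The largest difference was that of psbD, for the reaction centre protein D2, with 1480 to 3515 in shoots and 51.1 to 130.3 in roots (4.59 ± 0.10, adjusted p = 7.2e-18). The genes for the antenna protein CP43, psbC, and for the other reaction centre protein D1, psbA, followed with 4.41 ± 0.11 and 4.34 ± 0.07. At the other end stood psbM, a small membrane subunit, which was the brightest of the class in shoots (2931 to 6483) and also gave 1066 to 1965 in roots (1.64 ± 0.09, adjusted p = 9.07e-12). Shoot and root arrays did not overlap on any of the 15 genes.

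The cytochrome b6f complex passes electrons from photosystem II to plastocyanin. Its 6 genes had a median of 2.38. The cytochrome f gene petA differed most, by 3.69 ± 0.09. The cytochrome b6 gene petB was the brightest in shoots, at 3929 to 6100 against 572.7 to 936.2 in roots. The small subunit gene petN differed least of all 69 genes (0.77 ± 0.12, adjusted p = 9.76e-06), with 136 to 340 in shoots and 73.3 to 150.9 in roots, so that some root arrays were as bright as the dimmest shoot array.

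The 6 genes of ATP synthase had a median of 2.65. The gene for a membrane stalk subunit, atpF, differed most, with 1004 to 2349 in shoots and 33.4 to 89.3 in roots (4.46 ± 0.08, adjusted p = 2.94e-19). The α subunit gene atpA, in the same cluster, differed by 4.35 ± 0.13. The β and ε subunit genes atpB and atpE form a cluster of their own and differed by 2.53 ± 0.07 and 2.40 ± 0.08, and atpB was the brightest of the class in shoots, at 4809 to 7304. The Rubisco large subunit gene rbcL, whose product fixes carbon dioxide, read 380.1 to 1406 in shoots and 32.3 to 91.3 in roots (3.42 ± 0.12, adjusted p = 1.52e-14).

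The plastid NDH complex returns electrons from ferredoxin to the electron transport chain around photosystem I. Its 10 measured genes had a median of 3.19 and spanned the widest range of the classes. The subunit gene ndhJ read 957.5 to 2105 in shoots and 19 to 44.7 in roots, a difference of 4.93 ± 0.08 (adjusted p = 2.48e-19), which was the largest of all 69. The membrane subunit gene ndhF was dim in both organs, at 33.3 to 89.4 in shoots and 11.7 to 40.7 in roots, so the groups overlapped and its difference of 0.91 ± 0.11 is damped by the added 16. The brightest in shoots was ndhI, at 3460 to 5007 against 287.1 to 552.1 in roots.

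Genes of the expression machinery differed between the organs too. The 4 genes of the plastid RNA polymerase had a median of 2.55, from 1.88 ± 0.07 for rpoA, the α subunit and the brightest of them (1597 to 2802 in shoots, 323 to 683.3 in roots), to 3.20 ± 0.08 for rpoC1. The 8 genes of the small ribosomal subunit had a median of 2.30, with rps2 highest at 3.34 ± 0.07, rps4 brightest in shoots at 2542 to 4275, and rps14 lowest at 0.85 ± 0.13 with overlapping arrays. The 7 genes of the large subunit had a median of 2.79, from 1.58 ± 0.10 for rpl32 to 3.64 ± 0.09 for rpl33, and rpl36 was brightest at 2361 to 4007. Whether these class medians differ from those of photosynthesis was not tested.

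The 5 remaining genes had a median of 2.91. They were cemA, for an envelope membrane protein (3.85 ± 0.10), accD, for a subunit of the carboxylase that starts fatty acid synthesis (3.12 ± 0.10), ccsA, for a factor of cytochrome c assembly (2.91 ± 0.05), matK, for a splicing factor of group II introns (2.89 ± 0.06), and clpP, for a protease subunit (2.60 ± 0.09). The last was the brightest of them in shoots, at 2783 to 4161. None of the 5 overlapped between the organs.

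The organ difference was set beside that of other organelle and nuclear genes measured on the same arrays. As background for the counts here, 6284 of all 22746 probe sets were called higher in shoots and 11182 lower. Of 11 mitochondrial genes 2 were higher and 3 lower in shoots, with a median of -0.06 and a range of -0.53 to 0.39, all below the smallest plastid difference. As a set these mitochondrial genes were dim in both organs. Their median log2 level was 5.18 to 5.605 on the shoot arrays and 5.34 to 6.06 on the root arrays. Mitochondrial differences, here and over time below, are therefore damped by the constant added to each signal. How far this hid a difference between the organs was not tested. All 8 measured genes of a nuclear photosynthesis list of 39 were higher in shoots, with a median of 5.42 and the light-harvesting gene LHCB4.2 and the photosystem I gene PSAE-1 at 6.01 ± 0.09 and 5.79 ± 0.11. The 3 measured nuclear genes for plastid ribosomal proteins (median 4.05) and the 3 for NDH subunits (4.71, NDHL at 5.16 ± 0.06) were also higher. The 1 measured gene of the nuclear list for plastid transcription, RPOTmp, a phage-type RNA polymerase of mitochondria and plastids, was dim (6.51 to 20.7 in shoots, 26.0 to 41.4 in roots) and was lower in shoots by -0.70 ± 0.08 (adjusted p = 2.72e-07). The 3 measured root markers were lower in shoots, PYK10 by -2.51 ± 0.06 and EXPA7 by -1.08 ± 0.08.

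Within an organ the class medians moved by less than the gap between organs. Over the 12 shoot arrays the median log2 level of the photosystem II genes ran from 10.8 to 11.5 and that of the photosystem I genes from 11.1 to 11.8, while the roots lay at 7.27 to 7.73 and 7.28 to 8.32. The single gene rbcL spanned more, 8.63 to 10.5 in shoots and 5.59 to 6.75 in roots. Among the root classes the NDH median had the widest range, from 6.04 to 7.44. Both arrays of roots at 3 h lay near its ends, at 6.04 on array 1 and 7.32 on array 2.

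**Figure D2:**
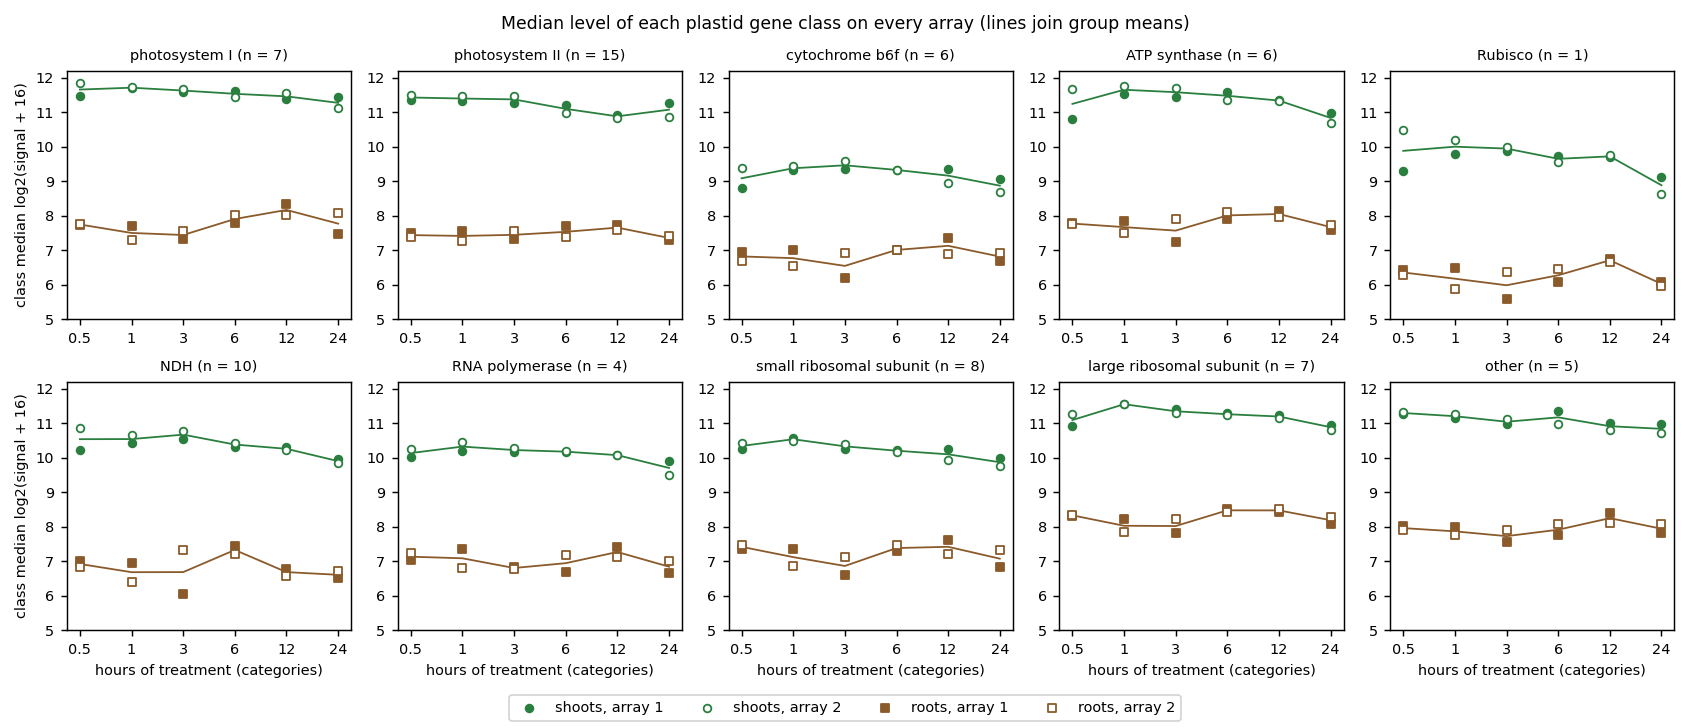
Median log2(signal + 16) of each class of plastid genes (vertical axis) by hours of treatment (horizontal axis, evenly spaced categories), with filled and open symbols for arrays 1 and 2, circles for shoots, squares for roots and lines through the group means. Shoots stay above roots in every class at every time, and rbcL on the array lowest for it in shoots, array 2 at 24 h, is at 8.63.

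In shoots, at most 1 of the 69 plastid genes passed at 1, 3 and 6 h, 5 did at 12 h and 13 at 24 h, all as lower. None passed at 1 h, where 8.76% of all probe sets did (2 members at an unadjusted p below 0.05), and none at 3 h, where 12.3% did (again 2). At 6 h only psbM passed, by -0.78 ± 0.22 (adjusted p = 0.018), where 11.0% of all probe sets were called lower and 9.83% higher. The psbM call was lost without array 2 at 0.5 h and without array 1 at 6 h (highest adjusted p = 0.198). The members' median was 0.06 at 1 h, -0.01 at 3 h and -0.16 at 6 h.

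At 12 h in shoots 5 of the 69 were lower and none higher, against 14.8% of all probe sets lower and 14.0% higher, so the members' share was below the background. They were psbD (-0.78 ± 0.24), psbM (-0.76 ± 0.22), psbA (-0.62 ± 0.18), ccsA (-0.42 ± 0.13) and rpl36 (-0.34 ± 0.11), with adjusted p-values of 0.0143 to 0.0264 from limma. The D1 gene psbA read 2615 and 2833 at 0.5 h and 1713 and 1808 at 12 h, without overlap, and 2673 and 1854 at 24 h. The small subunit gene psbM read 5366 and 6483 at 0.5 h, 2931 and 3984 at 6 h and 4102 and 2938 at 12 h. On other arrays it was variable, with 5829 and 3725 at 1 h. Over the 69 genes the median at 12 h was -0.20, with 55 values below 0. Without overlap 29 of the 69 lay below 0.5 h, where 33.7% of all probe sets did. The classes differed in this count, and whether by more than the array spread was not tested. It was 12 of the 15 photosystem II genes (14 below 0, median -0.33), 2 of the 10 NDH genes and 0 of the 4 RNA polymerase genes. The count of 5 was 1 (psbA) after quantile normalization over all arrays, without array 2 at 12 h it was 1 (psbA), and without array 2 at 0.5 h it became 1 lower (rpl36) and 4 higher (atpI, ndhF, ndhH and rps15).

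At the same 12 h, nuclear photosynthesis genes were lower in shoots as well, on 5 of 8, with LHCB4.2 at -1.95 ± 0.21 and PSAN at -0.89 ± 0.17 and a median of -0.55. The NDH subunit gene NDHN was higher by 0.91 ± 0.15 and RPOTmp by 0.58 ± 0.20 (adjusted p = 0.0352). The 3 root markers summed to 795.7 on array 1 at 12 h and 587.7 on array 2. Array 1 at 12 h, which lay nearer to the roots, held the lowest summed nuclear photosynthesis signal of the shoot arrays, 23780. Its part in these values was not tested beyond leaving it out, which left 3 plastid genes lower, psbM, ccsA and rpl32.

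At 24 h in shoots 13 of 69 plastid genes were lower than at 0.5 h and none higher, where 10.1% of all probe sets were called lower and 8.85% higher. Of the 69 values, 67 were below 0, with a median of -0.42 against -0.05 over all probe sets, and 47 genes were lower without overlap between the times, against 31.2% of all probe sets lower without overlap. The genes that passed came from most classes, 3 from photosystem II (psbD, psbF and psbL), 3 and 2 from the small and large ribosomal subunits (rps3, rps16 and rps19, and rpl14 and rpl36), 2 of the other genes (matK and ccsA), and atpF, ndhJ and rbcL. None of the 7 genes of photosystem I, the 6 of cytochrome b6f or the 4 of the RNA polymerase passed, although all 7 of photosystem I were below 0 (median -0.39) and on each both 24 h arrays lay below both 0.5 h arrays. The values above 0 were those of rps14 (0.54 ± 0.32) and rpoA (0.12 ± 0.18), neither of which passed.

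Among the 13 genes that passed, rbcL had the largest value, -0.997 ± 0.31 (adjusted p = 0.0296). It ran from -1.59 to -0.40 when 1 array was left out, with the call lost without array 2 at 0.5 h and without array 2 at 24 h. In shoots it read 605 and 1406 at 0.5 h, 872.5 and 1159 at 1 h, 928.8 and 1008 at 3 h, 832.7 and 739.7 at 6 h, 807.3 and 843 at 12 h, and 543.5 and 380.1 at 24 h. Both 24 h arrays were the lowest of the 12 shoot arrays, but array 1 at 0.5 h came next. The ribosomal gene rpl14 (-0.71 ± 0.16, adjusted p = 0.00469) read 1346 and 1757 at 0.5 h and 972.4 and 896.2 at 24 h, with 1047 to 1702 on the arrays between, so both 24 h arrays lay below all others. For matK (-0.59 ± 0.15, adjusted p = 0.00904) the signals were 1877 and 2401 at 0.5 h and 1483 and 1330 at 24 h. The stalk subunit gene atpF (-0.64 ± 0.19) rested on 1531 and 1959 at 0.5 h against 1213 and 1004, and stood higher at 1 h, at 2027 and 2349. The D2 gene psbD (-0.79 ± 0.24) read 2255 and 3515 at 0.5 h, 1625 and 1646 at 12 h and 1772 and 1480 at 24 h, and its 4 arrays at 12 and 24 h were the lowest of the shoots. The others among the 8 largest of the genes that passed were ndhJ (-0.61 ± 0.21), ccsA (-0.49 ± 0.13) and rps19 (-0.48 ± 0.15).

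**Figure D3:**
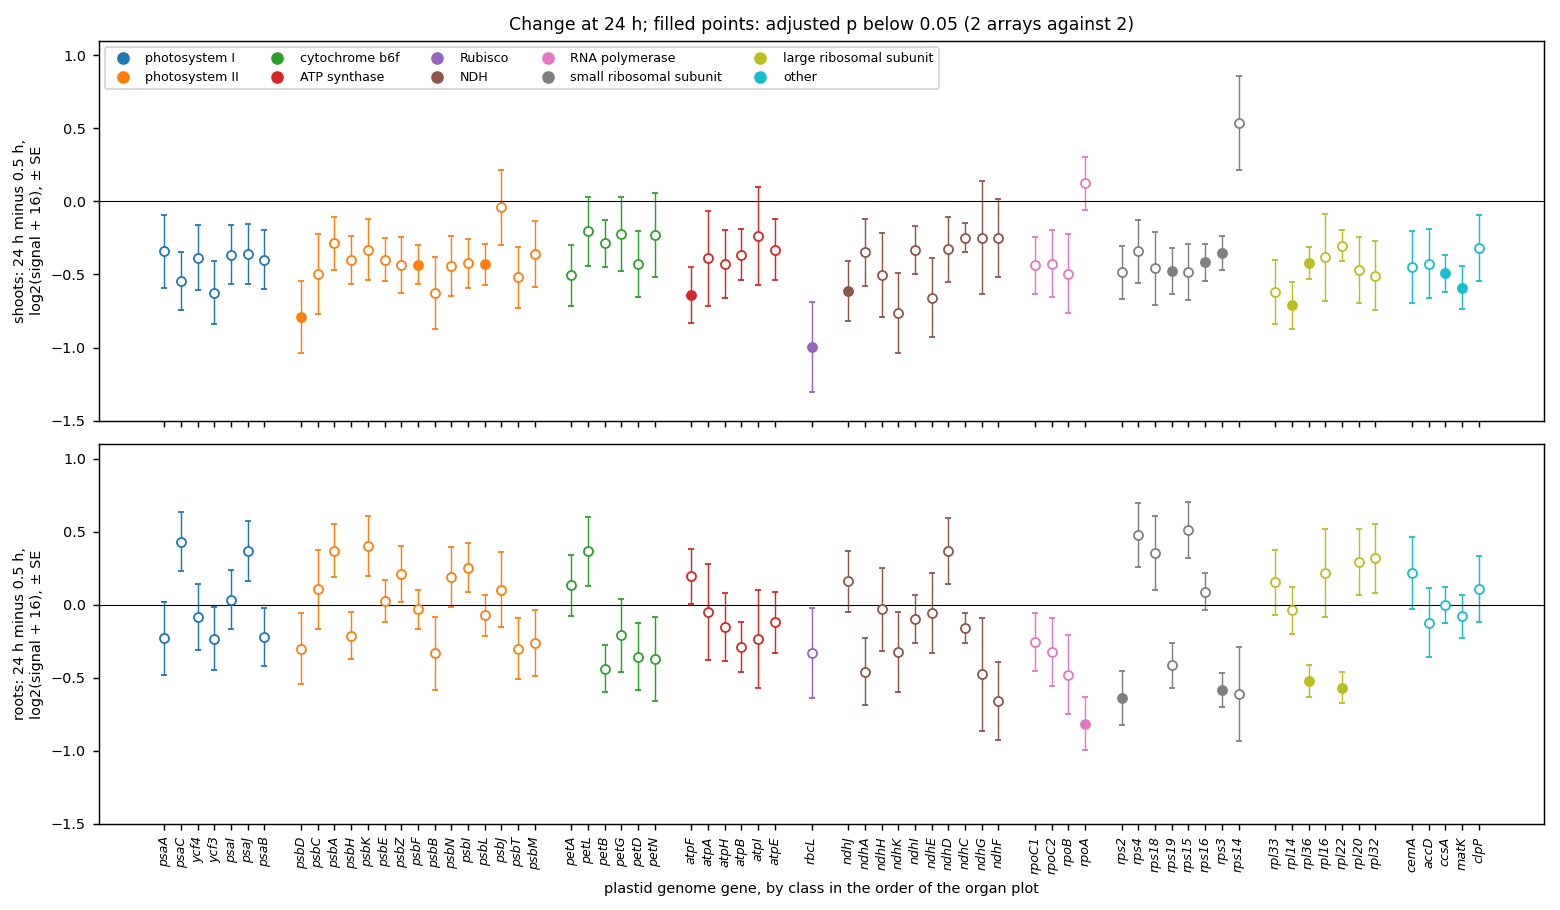
Change from 0.5 h to 24 h of treatment for each of the 69 plastid genes, in log2(signal + 16), 2 arrays against 2, with shoots in the upper and roots in the lower panel, bars of ± 1 standard error, colours for the classes and filled points for an adjusted p below 0.05. In shoots 67 genes lie below 0 with a median of -0.42 and 13 are filled, and in roots 43 lie below 0 with a median of -0.09 and 5 are filled.

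The 24 h result in shoots leaned on 2 arrays. Array 2 at 24 h held the lowest signal of the 12 shoot arrays for 56 of the 69 genes (81.2%), a position it held for 9.99% of all probe sets. Array 2 at 0.5 h held the highest for 24 (34.8% against 8.06%). Without array 2 at 24 h only rpl14 passed, and without array 2 at 0.5 h rpl22, rpl36 and ccsA did. Without array 1 at 0.5 h or array 1 at 24 h the counts were 19 and 14. In fits without 1 of these 4 arrays, 61 to 68 of the 69 values were below 0, with medians of -0.58 to -0.28. Every such fit kept array 2 at 0.5 h or array 2 at 24 h, so none shows the direction without both. The 69 genes also share their arrays and are not separate tests of it. The median log2 level of the 69 genes was 11.01 at 0.5 h and 10.87 at 24 h on array 1. On array 2 it was 11.21 and 10.57. With all arrays, 13448 of all 22746 probe sets were below 0 too. Set against 1 h, a baseline chosen after the data were seen, 19 genes passed, and against the mean of 0.5 h and 1 h 26 did. The count was 7 after centring and 4 after quantile normalization over all arrays, with medians of -0.38 and -0.25.

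On the same 24 h shoot arrays, none of the 8 nuclear photosynthesis genes passed, with values of -0.41 to -0.11 (median -0.29), and 1 of them had an unadjusted p below 0.05. The 3 nuclear genes for plastid ribosomal proteins did not pass either (median -0.07), and of 3 nuclear NDH genes NDHN was higher by 0.59 ± 0.15. The 11 mitochondrial genes had a median of -0.12, and none passed, with 1 at an unadjusted p below 0.05. Root markers, 3 measured of 11 listed, summed to 463.9 and 486.4 on the 24 h shoot arrays, within the range of the other shoot arrays. This sum is mostly PYK10, at 362.3 to 797.9 over the shoot arrays, against at most 14.9 for EXPA7 and 21.3 for EXPA18. That range is widened by PYK10 itself, which was called higher in shoots at 3, 6 and 12 h (0.66, 0.75 and 0.63). The summed nuclear photosynthesis signal was 37820 on array 1 at 24 h and 30060 on array 2, against 43190 and 39120 at 0.5 h, so this sum, too, was lower on the array that held most of the low plastid signals. Its part in the plastid values was not tested.

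**Figure D4:**
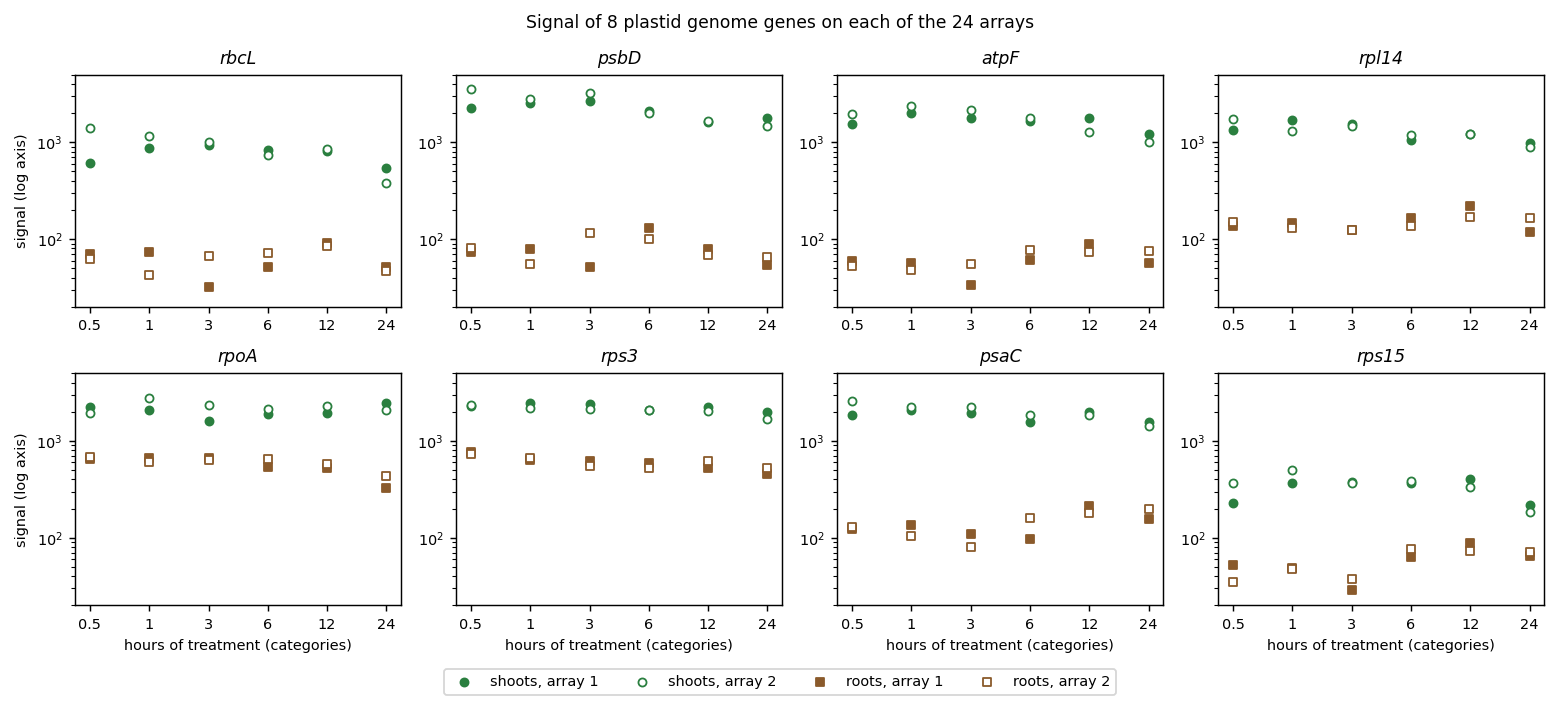
MAS5 signal (vertical axis, log scale) of 8 plastid genes on each of the 24 arrays by hours of treatment (horizontal axis, evenly spaced categories), with circles for shoots, squares for roots and filled and open symbols for arrays 1 and 2. In shoots rbcL reads 543.5 and 380.1 at 24 h and rpl14 972.4 and 896.2, and in roots rpoA reads 323 and 430.6.

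In roots the plastid genes moved by small amounts in both directions, with medians of -0.10 at 1 h, -0.22 at 3 h (63 of 69 below 0), 0.04 at 6 h, 0.18 at 12 h and -0.09 at 24 h. Over the 5 comparisons 8 genes passed at least once, a pooled count for which no share over all probe sets was taken. Each comparison is therefore given with its own share. None passed at 1 h, where 0.470% of all probe sets did, and no member had an unadjusted p below 0.05. At 3 h rps2 alone was lower (-0.81 ± 0.18, adjusted p = 0.0119, background 2.41% lower and 2.95% higher) and at 6 h rps3 alone (-0.40 ± 0.12, adjusted p = 0.0492, background 2.63% lower and 3.21% higher). The signal of rps2 was 216.6 and 261.5 at 0.5 h and 106.5 and 154.9 at 3 h. The call of rps2 at 3 h was lost without array 2 at 0.5 h and without array 1 at 3 h (highest adjusted p = 0.185, values of -1.05 to -0.57), and that of rps3 at 6 h whichever of the 4 arrays was left out.

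At 12 h in roots psbK (0.80 ± 0.21, adjusted p = 0.0178), for a small photosystem II subunit, petL (0.77 ± 0.23, adjusted p = 0.0481), for a small cytochrome b6f subunit, and the ribosomal gene rps15 (0.69 ± 0.19, adjusted p = 0.0285) were higher, where 5.10% of all probe sets were. The same comparison had rps3 lower (-0.38 ± 0.12, adjusted p = 0.0439), where 4.55% were. The signal of psbK was 216.3 and 239.1 at 0.5 h and 469.6 and 355.9 at 12 h, that of petL 78.7 and 71.9 and then 155.5 and 124.3, and that of rps15 52.7 and 34.95 and then 87.4 and 72.7. None of the 3 overlapped between the times. Array 1 at 12 h held the highest of the 12 root signals for 35 of the 69 genes (50.7% against 7.27% of all probe sets), and without it no member passed, nor without array 2 at 0.5 h. Without array 1 at 0.5 h 1 passed, and without array 2 at 12 h 2 did. The members' median at 12 h was 0.18, with 48 above 0 and 36 higher without overlap, against 29.4% of all probe sets.

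At 24 h in roots 5 genes were lower and none higher, a share close to the 6.68% of all probe sets called lower (6.40% were called higher). They were rpoA (-0.81 ± 0.18, adjusted p = 0.00587), rps2 (-0.64 ± 0.18), rps3 (-0.59 ± 0.12), rpl22 (-0.57 ± 0.11, adjusted p = 0.00155) and rpl36 (-0.53 ± 0.11). Other genes of the same classes had values above 0 that did not pass, such as rps15 at 0.51 and rps4 at 0.48. The α subunit gene rpoA read 652.6 and 683.3 at 0.5 h, 520.2 to 669.3 from 1 to 12 h, and 323 and 430.6 at 24 h, so both 24 h arrays lay below all other root arrays. The ribosomal gene rpl22 read 390.4 and 443.2 at 0.5 h and 255.7 and 295.9 at 24 h, and rpl36 414 and 457.5 and then 284.3 and 311.4. Their 24 h arrays, too, were the lowest of the roots. The median over the 69 was -0.09 (0.02 over all probe sets), and 43 values were below 0.

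Among these calls, that of rpl22 held whichever array was left out (highest adjusted p = 0.0371), and that of rps3 was lost without array 1 at 24 h (adjusted p = 0.0517). The calls of rpoA, rps2 and rpl36 were lost without array 2 at 0.5 h and without array 1 at 24 h, with values of -1.01 to -0.61, -0.83 to -0.45 and -0.59 to -0.46. Against 1 h, rpoA, rps3, rpl22 and rpl36 passed and rps2 did not. These 4 genes lie together on the plastid chromosome in the ribosomal cluster that runs from rps19 to rpoA, a grouping made after their values were seen. A median over the 7 measured genes of that cluster would be the value of 1 of these 4, rpl36, and is not given. The others, none of which passed in roots at 24 h, were rps19 at -0.42 ± 0.15, rpl14 at -0.04 ± 0.16 and rpl16 at 0.22.

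Any change over the 6 times was tested as well. In shoots 16 of the 69 genes passed, a smaller share than the 40.4% of all probe sets that did. They were matK, rps16, atpF, rps2, rpoB, psbM, psbD, ycf3, ndhJ, rbcL, rpl36, rpl14, rpl22, ccsA, ndhH and rps15, with none from cytochrome b6f. In roots 11 passed, close to the 16.3% of all probe sets, namely psbK, psbI, rps2, rps4, petL, rpoA, rpl36, rps3, rpl22, psaC and rps15.

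The change over time was then compared between the organs, as the change in roots minus that in shoots. At 12 h the difference was above 0 for 57 of 69 genes, with a median of 0.49 against 0.05 for all probe sets, and 4 passed, all higher, where 8.01% of probe sets were called higher and 7.56% lower. They were psbK (1.001 ± 0.29), psbA (0.99 ± 0.26), rpl14 (0.73 ± 0.23) and ccsA (0.59 ± 0.18). For psbA the root signals went from 88.4 and 79.6 to 113.1 and 113.1 while the shoot signals went from 2615 and 2833 to 1713 and 1808. At 24 h the median was 0.39 against 0.06, and psaC (0.97 ± 0.28), the iron-sulfur subunit gene of photosystem I, and rps15 (0.996 ± 0.27) passed as higher (background 5.09%) and rpoA (-0.94 ± 0.25) as lower (background 4.30%). For rpoA the shoot signals were 2229 and 1921 at 0.5 h and 2469 and 2063 at 24 h, with overlap, against the lower root signals given above. The count at 24 h was 0 without array 2 at 0.5 h in either organ, and 9 without array 1 at 0.5 h in shoots.

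The gap between the 2 arrays of a group was larger on plastid genes than over all probe sets in each of the 12 groups, and mostly ran one way across genes. In shoots at 0.5 h, the baseline of every time comparison, the median gap between the 2 arrays was 0.35 over the 69 genes, regardless of sign, and 0.16 over all probe sets. Array 2 was higher on 53 of them. The gap was over 1 for 6 genes, atpI, rbcL, ndhH, atpA, ndhK and ndhF. The membrane subunit gene atpI read 161 on array 1 and 481.8 on array 2, and atpA 1635 and 3604. Other genes ran the opposite way, with petB at 6100 and 4585 and psaB at 7166 and 5900, so the gap was not the same for all genes.

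**Figure D5:**
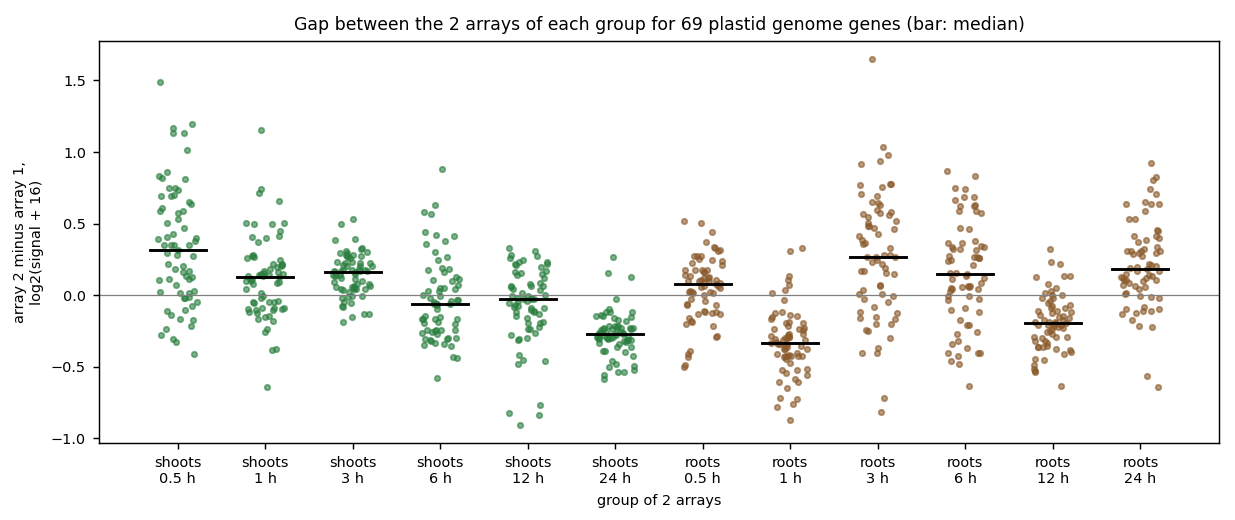
Gap between the 2 arrays of each group for the 69 plastid genes, array 2 minus array 1 in log2(signal + 16) on the vertical axis, by organ and hours of treatment, with 1 point per gene, shifted sideways for display, and a line at the median. The median gap is 0.32 in shoots at 0.5 h, -0.27 in shoots at 24 h and -0.33 in roots at 1 h.

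At 24 h in shoots the gaps ran together, with array 1 higher on 66 of the 69 genes (median -0.27 for array 2 minus array 1), where array 2 was higher for 48.3% of all probe sets. In roots at 1 h array 1 was higher on 62 (median gap 0.33 regardless of sign, against 0.11 over all probe sets). In roots at 3 h the median gap was 0.37 against 0.11, and the NDH gene ndhG had the largest, with 37.7 on array 1 and 152.4 on array 2. Array 1 at 3 h held the lowest root signal for 30 of the 69 genes (43.5% against 7.41%). Because every group holds 2 arrays, a gene's standard error comes from such gaps over the 12 groups, and the genes with the smallest standard errors, such as ndhC (0.10), rpl22 (0.11) and rpl36 (0.11), could pass at smaller changes than atpA (0.33) or ndhG (0.39).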

How the data were processed

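The authors deposited a linear signal intensity per probe set from 24 ATH1 arrays of biotin-labelled total RNA. The submitters' processing notes name MAS5. The version, the genome build and how the RNA was primed for labelling are not given in the sources used here, and most plastid transcripts lack long poly(A) tails. No detection calls entered the analysis, and whether a dim probe set was above background was not tested. The deposited intensities had a trimmed mean of 99.2 to 99.4 on every array, with 2% left out at each end. The number of arrays limits the precision.

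The 64 control probe sets were left out, which left 22746. Signals were fitted as log2(signal + 16) in R 4.3.3 with limma 3.58.1, with 12 group means over all 24 arrays and a variance trend. Each test had 12 degrees of freedom from the arrays plus 4.91 from the prior, and the Benjamini-Hochberg adjustment ran over all 22746. Contrasts were shoots minus roots over all times, each time minus 0.5 h within an organ, the roots minus shoots difference of the 12 h and 24 h changes, and any change over time. The script was tested on simulated data. Names came from the array's annotation table (13513 probe sets with 1 gene, 503 with several, 8730 unlisted) and RefSeq TAIR10.1, used for names and gene order only, since the deposited data name no build.

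The members, the classes, the nuclear lists and the tests were chosen with earlier results of these data known. In each class the brightest gene in shoots and the largest and smallest organ difference were named, rbcL, psbD and atpF throughout, and in each comparison over time all members past the threshold or, if over 8, the 8 largest, with the 2 largest changes of each nuclear list. Other features are named as values. Replicate numbers did not pair the samples: over 66 pairs of groups the correlation of same-numbered deviations ran from -0.19 to 0.20 and was over 0.1 in 6. Tried instead were a pseudocount of 1 or 64, quantile normalization of all arrays or of each tissue, median centring, leaving out the dimmest 30% of probe sets, no variance trend, each tissue alone, the replicate block, 0.5 h and 1 h together or 1 h as baseline, and each array left out. Figures were drawn with Python 3.11.15, pandas 2.3.3 and matplotlib 3.10.9.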

Additional observations from a re-analysis of the deposited data

Results flagged for a closer look

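The difference between the organs in the change over time was tested itself. It is given as the change in roots minus that in shoots in log2(signal + 16), with adjusted p-values from limma. Of all probe sets 8.01% were called higher and 7.56% lower at 12 h, and 5.09% and 4.30% at 24 h. Of the 69 plastid genes 7 were called, at each time a smaller share than of all probe sets. At 12 h these were psbK (1.001 ± 0.29, adjusted p = 0.0261), psbA (0.9945 ± 0.26, adjusted p = 0.0126), rpl14 (0.7297 ± 0.23, adjusted p = 0.0381) and ccsA (0.5912 ± 0.18, adjusted p = 0.0314). For psbK the roots rose by 0.80 and the shoot value was -0.20. The difference of psbA lost its call only without array 2 of roots at 0.5 h (adjusted p = 0.0501), with values of 0.93 to 1.06 over the 8 fits with 1 array left out. Those of psbK, rpl14 and ccsA lost it in 4, 6 and 6 of the 8 fits, with 0.81 to 1.19, 0.54 to 0.92 and 0.49 to 0.69.

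At 24 h they were rpoA (-0.9377 ± 0.25, adjusted p = 0.0277), psaC (0.9747 ± 0.28, adjusted p = 0.0379) and rps15 (0.9959 ± 0.27, adjusted p = 0.0291). The 3 calls were each lost in 5 of the 8 fits, with values of -1.14 to -0.74 for rpoA, 0.72 to 1.23 for psaC and 0.67 to 1.32 for rps15. For rps15 the shoot signals were 227.4 and 365.9 at 0.5 h and 219.8 and 185.3 at 24 h, and the root signals 52.7 and 34.95 and then 64.9 and 71.9.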

How the results depend on the processing

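The count of 69 plastid genes higher in shoots was the same under every alternative run. Of 182 counts under alternatives other than leaving 1 array out, 136 stayed within 1.5 times, and of the values of named genes 356 kept direction and call, 118 kept direction but lost the call and none turned. Where a count moved, the cause was not tested. With a pseudocount of 1 the counts were 0 in roots at 6 h and 2 at 12 h, and with 64 they were 3 in shoots at 6 h, 2 in roots at 12 h and 5 for the organ difference at 24 h. Quantile normalization over all arrays gave 0, 1 and 4 in shoots at 6, 12 and 24 h, 0 in roots at 6 h, 1 for the organ difference at 12 h and 6 for any change in shoots. Within each tissue it gave 0, 2 and 7 in shoots at those times, 0 and 2 in roots at 6 and 12 h and 2 for the difference at 12 h. Centring gave 7 in shoots at 24 h, 2 for the difference at 12 h and 10 for any change in shoots. Without the dimmest 30% of probe sets there were 3 in shoots at 6 h, 7 in roots at 12 h and 7 for the difference at 12 h. With each tissue fitted alone there were 0, 1 and 5 in shoots at 6, 12 and 24 h, 7 for any change there, 2, 0 and 1 in roots at 3, 6 and 12 h and 6 for any change there. The replicate block gave 0 in roots at 6 h and moved no other count by over 1.5 times. Against the mean of 0.5 h and 1 h there were 4 and 26 in shoots at 6 and 24 h, 0 and 9 in roots at 6 and 12 h, and 15 and 10 for the difference at 12 and 24 h. Against 1 h, chosen after seeing the data, there were 2 in shoots at 6 h, 0 in roots at 3 and 6 h, and 9 and 5 for the difference. Without both shoot arrays nearest to the roots there was 1 in shoots at 24 h, 1 for the difference at 24 h and 3 for any change in shoots.

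With 1 array left out, which leaves a group with a single array whose variance is taken from the other groups, the counts in shoots were 0 to 5 at 1 h, 0 to 3 at 3 h, 0 to 5 at 6 h, 1 to 7 at 12 h, 1 to 19 at 24 h and 5 to 21 for any change. In roots they were 0 to 0 at 1 h, 0 to 1 at 3 h, 0 to 0 at 6 h, 0 to 2 at 12 h, 2 to 7 at 24 h and 7 to 17 for any change. For the organ difference they were 1 to 6 at 12 h and 0 to 9 at 24 h, and for shoots against roots 69 to 69.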

Other observations

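Neighbouring plastid genes that are transcribed together, by textbook units listed after the values had been seen, varied together only in part. The measure was Pearson's r between 2 genes over the 12 arrays of an organ, after the median of the 69 genes had been taken off each array, which share their libraries and hybridisations. In shoots the median r was 0.30 over 90 pairs of the same unit and 0.03 over 2256 other pairs, and in roots 0.23 and 0.11. The ATP synthase genes atpB and atpE, whose reading frames adjoin, had an r of 0.98 in shoots and 0.44 in roots. In the unit from rps2 to atpA the median of 10 pairs was 0.60 in shoots and -0.10 in roots. In the NDH unit of ndhC, ndhK and ndhJ the 3 pairs had a median of -0.87 in shoots, and the highest was 0.81. These r are relative to the median of the 69 genes on each array and do not show that the signals themselves moved in opposite directions. All 3 genes had their lowest shoot signal on array 2 at 24 h, at 1850, 371.4 and 957.5. Their highest was on array 1 at 0.5 h for ndhC and on array 2 at 0.5 h for ndhK and ndhJ. In roots the 21 pairs of the ribosomal cluster from rps19 to rpoA had a median of 0.57, against 0.10 in shoots. The pair of psbK and psbI had 0.75 in roots and -0.23 in shoots.

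Over time in roots the 11 mitochondrial genes had medians of -0.08, -0.09, 0.26, 0.09 and 0.03 at 1, 3, 6, 12 and 24 h against 0.5 h, and none passed at any of these times.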
